A study of Mus musculus with 21 samples.

Results

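The 9 libraries described here come from sham-injected Lewis lung carcinoma (LLC) tumors of wild-type mice, out of 21 libraries in the series, and were taken by their labels alone. They were read across the 750 probes of a NanoString PanCancer panel, a set of immune and tumor microenvironment genes. The hosts were male C57BL/6 mice carrying LLC cells, a mouse lung cancer line, in the right flank. Once the tumors were established, they received phosphate-buffered saline into the tumor and no agonist. The 12 other libraries, from agonist-injected wild-type tumors and from sham tumors of TMEM173(gt/gt) hosts, are not compared here. Total RNA came from whole tumors, so a value sums tumor cells and host cells of every kind, and fewer cells of a type and less RNA per cell cannot be told apart. Nothing in the labels says that the numbered libraries came from separate mice, so the spread between them may be partly technical.

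Lung is the tissue named in the labels, yet by the growth protocol these were flank tumors. Of 8 lung epithelium markers listed for the check, Foxj1, a transcription factor of ciliated cells, was on the panel, and it averaged a normalized value of 5.75 ± 2.05 (SD, n = 9). A pair of general epithelial genes were higher, Epcam at 42.6 ± 17.3 and Cdh1 at 41.7 ± 12.9. The other 7 lung epithelium markers were not found on the panel by name, so the check rests on Foxj1 alone.

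The deposited values of a library summed to between 240633 and 299484, and they were whole multiples of a step, called the scaling factor here, that ran from 0.650 to 1.08 over the libraries. Dividing by that step gave between 256573 and 389302 whole counts per library, and these counts set the precision of low probes. No value was 0, and 13 of 6749 values stood at 1 count. Each library correlated with the mean of the other 8 at a Pearson r of 0.947 to 0.989 over probes. Any pair of libraries differed beyond counting, with a chi-square per degree of freedom of 6.63 or more. Hif1a was blank in replicate 3 and is described from 8 libraries.

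An LLC tumor in an immunocompetent host is a mixture of carcinoma cells, macrophages, granulocytes, fibroblasts and vessels. Interferons act through transcription factors that bind the interferon-stimulated response element (ISRE) in the promoters of antiviral and antigen-presentation genes, and interferon-gamma also drives the CXCR3 ligands and MHC class II. The ELR chemokines Cxcl1, Cxcl2, Cxcl3, Cxcl5 and Ppbp attract neutrophils through the receptor Cxcr2, and NF-kB is a known activator of several of them. Arginase 1 (Arg1) depletes arginine and is a marker of myeloid cells that restrain T cells.

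Promoters are printed for 6 genes of the neutrophil chemokine and interferon groups described below, 300 bases each from 250 before to 50 after the annotated start, taken from RefSeq on GRCm38.p6 and written along the gene's strand. Cxcl1, Cxcl2 and Cxcl3 are neutrophil chemokines, and Cxcl10, Ifit3 and Isg15 are interferon-induced genes. Capitals mark matches, on either strand, to an NF-kB consensus (GGG, any 2 bases, then TTTCC) in the chemokines Cxcl1 (chr5:90890995-90891294, plus strand), Cxcl2 (chr5:90903649-90903948, plus strand) and Cxcl3 (chr5:90785851-90786150, plus strand), and to an ISRE core (GAAA, any 2 bases, then GAAA) in Cxcl10 (chr5:92348840-92349139, minus strand), Ifit3 (chr19:34583279-34583578, plus strand) and Isg15 (chr4:156200769-156201068, minus strand).
Cxcl1: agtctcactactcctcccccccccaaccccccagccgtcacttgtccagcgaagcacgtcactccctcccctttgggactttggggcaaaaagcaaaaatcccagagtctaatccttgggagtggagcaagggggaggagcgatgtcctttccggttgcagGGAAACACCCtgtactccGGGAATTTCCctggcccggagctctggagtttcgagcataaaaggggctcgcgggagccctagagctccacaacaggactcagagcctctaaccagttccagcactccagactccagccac
Cxcl2: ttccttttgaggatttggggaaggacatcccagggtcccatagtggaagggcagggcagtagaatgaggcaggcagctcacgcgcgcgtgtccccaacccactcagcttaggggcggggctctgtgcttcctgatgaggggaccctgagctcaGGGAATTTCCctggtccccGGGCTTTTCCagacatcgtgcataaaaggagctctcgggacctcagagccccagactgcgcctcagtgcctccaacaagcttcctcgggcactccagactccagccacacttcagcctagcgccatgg
Cxcl3: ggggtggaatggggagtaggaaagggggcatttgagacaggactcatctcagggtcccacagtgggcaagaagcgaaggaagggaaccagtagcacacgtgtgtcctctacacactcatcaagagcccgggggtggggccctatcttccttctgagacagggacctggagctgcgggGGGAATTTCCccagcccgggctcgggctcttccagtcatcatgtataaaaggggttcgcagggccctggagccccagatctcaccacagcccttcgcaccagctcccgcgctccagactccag
Cxcl10: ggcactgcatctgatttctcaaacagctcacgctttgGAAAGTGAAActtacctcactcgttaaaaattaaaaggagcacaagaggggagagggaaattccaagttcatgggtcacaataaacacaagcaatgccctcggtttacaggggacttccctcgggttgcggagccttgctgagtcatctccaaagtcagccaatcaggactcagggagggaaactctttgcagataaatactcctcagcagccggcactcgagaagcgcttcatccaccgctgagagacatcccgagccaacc
Ifit3: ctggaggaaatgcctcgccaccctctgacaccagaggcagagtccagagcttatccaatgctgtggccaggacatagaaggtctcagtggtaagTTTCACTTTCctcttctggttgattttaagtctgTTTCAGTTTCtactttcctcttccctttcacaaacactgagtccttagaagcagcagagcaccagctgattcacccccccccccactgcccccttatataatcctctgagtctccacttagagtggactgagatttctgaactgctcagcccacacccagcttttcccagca
Isg15: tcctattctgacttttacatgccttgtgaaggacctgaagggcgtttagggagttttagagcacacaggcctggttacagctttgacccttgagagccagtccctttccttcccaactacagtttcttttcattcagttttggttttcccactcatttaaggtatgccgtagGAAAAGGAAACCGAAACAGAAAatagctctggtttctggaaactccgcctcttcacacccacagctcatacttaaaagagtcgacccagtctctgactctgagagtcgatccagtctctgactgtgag

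The NF-kB letters began 71 and 89 bases before the start in Cxcl1, 78 and 97 in Cxcl2 and 73 in Cxcl3. The ISRE letters began 213 bases before the start in Cxcl10, 122 and 156 in Ifit3, and 3 overlapping matches began between 78 and 66 bases before the start in Isg15. The ISRE core was found in 1131 of 32851 mouse promoters of that length (3.44%), in 38 of the 398 tested probes that had a promoter (9.55%) and in 11 of 21 promoters of the interferon-stimulated list (52.4%). It was found in 0 of 9 promoters of the myeloid-attracting chemokine list. The NF-kB letters were found in 1.63% of all promoters, in 28 of the 398 tested probes (7.04%), in 4 of the 9 myeloid chemokines (44.4%) and in 0 of the 21 interferon-stimulated genes. The interferon-gamma response list held both, the ISRE core in 3 of 9 promoters (33.3%) and the NF-kB letters in 1 of 9 (11.1%). The matches are a description of letters in these windows, and the lists were made from known function. Only these letters were searched. Stretches close to the NF-kB letters, such as gggaaattcc and ggggacttcc in the Cxcl10 window, were neither marked nor counted.

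A small number of probes held a large part of the signal. Spp1, which encodes osteopontin, a secreted matrix phosphoprotein, was the highest probe, followed by the fibrillar collagen Col3a1 and the intermediate filament Vim. The highest probe alone held 7.92% ± 1.97 of the summed panel value, the 3 highest 16.7% ± 1.17, the 10 highest 30.6% ± 1.96 and the 25 highest 48.5% ± 2.04 (SD, n = 9). The median probe had a mean of 66.1, and the highest probe stood 324-fold above it. Probes capture their targets with unequal efficiency, so this is an order of probe values and not of molecules. Of the 750 probes, 537 had a mean of at least 20, 317 of at least 100, 55 of at least 1000 and 7 of at least 5000.

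**Figure D1:**
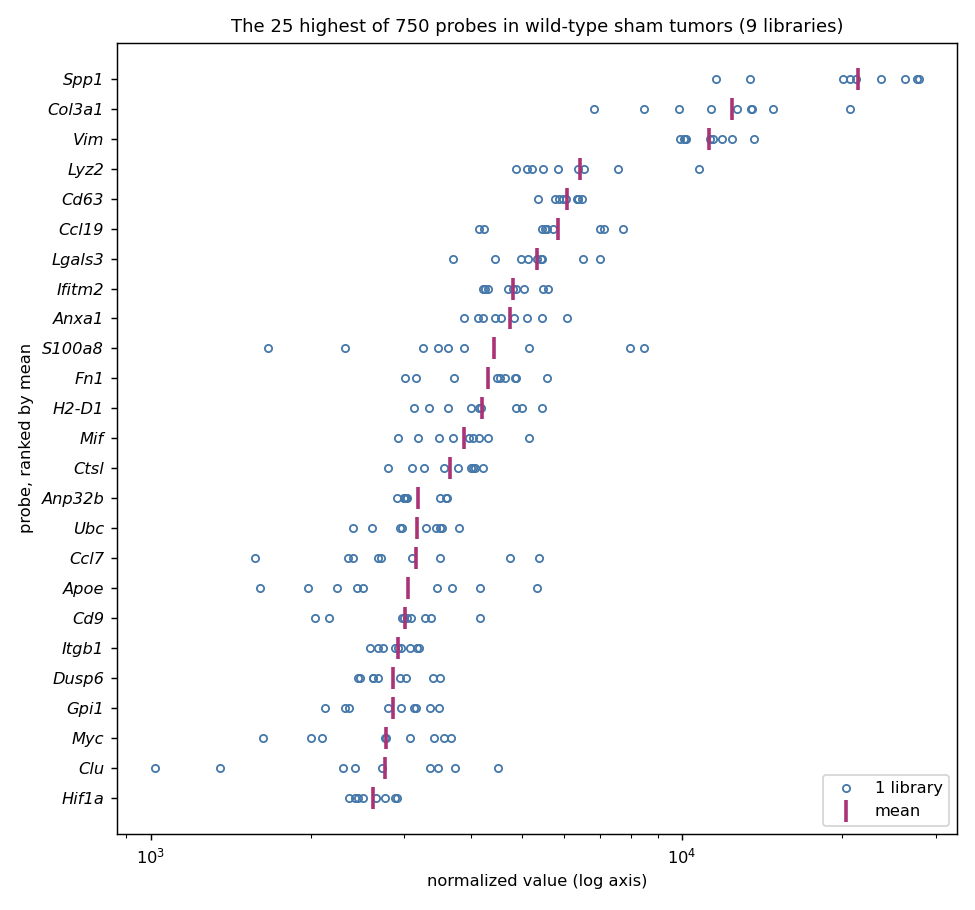
Normalized value of the 25 highest probes in each of the 9 sham libraries (circles, log axis) with their mean (bar). Spp1 spans 11566 to 27953 and S100a8 1665 to 8490, while Cd63 stays between 5367 and 6473.

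Spp1 averaged 21404 ± 5860, with 11566 in the lowest library, a median of 21212 and 27953 in the highest. Replicates 1 and 4 were the low libraries for Spp1, at 11566 and 13396, and the other 7 lay at 20094 or above. Col3a1 averaged 12415 ± 4044 and ran from 6814 in replicate 7 through a median of 12703 to 20679 in replicate 4. Replicate 4, low for Spp1, was the highest library for Col3a1, although over the 9 libraries Spearman's rho between them was -0.38. Vim, which marks mesenchymal and macrophage cells alike, averaged 11223 ± 1283. Lyz2, the lysozyme of macrophages and granulocytes, averaged 6416 ± 1832, with 10743 in replicate 2 against 4864 to 7583 in the other 8. Its coefficient of variation (CV, the SD over the mean) of 28.6% was 15.5% without replicate 2. Cd63, a tetraspanin of endosomes, averaged 6063 ± 361 with a CV of 5.96%, the evenest of the 25 highest probes.

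The other leading probes had mixed roles. Ccl19, a ligand of Ccr7, averaged 5837 ± 1250, the galectin Lgals3 5329 ± 983 and the interferon-inducible membrane gene Ifitm2 4810 ± 506. Anxa1, an annexin that limits inflammation, averaged 4746 ± 700. S100a8, a calcium-binding protein of neutrophils, was the least even of the 25 highest probes, with 1665 in the lowest library, a median of 3628 and 8490 in the highest. Replicates 5 and 6 were high for it, at 8490 and 7982, and no other library passed 5150. Fibronectin (Fn1) averaged 4315 ± 848, the class I heavy chain H2-D1 4197 ± 785, the cytokine Mif 3880 ± 662 and the protease Ctsl 3651 ± 498. The transcription factor Myc averaged 2777 ± 734 and Hif1a, the oxygen-regulated factor, 2621 ± 213 (n = 8). Hif1a was the last of the 25 highest by mean, and Psma2, a proteasome subunit, came just after it at 2546. The median CV of the 25 was 18.4%.

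By cell type, fibroblast and macrophage markers carried more signal than lymphocyte markers. The 10 fibroblast and pericyte markers on the panel summed to 7.28% of the panel value, led by Col3a1, Fn1 and Col1a1, and the 18 macrophage and monocyte markers to 5.42%, led by Lyz2, by the scavenger receptor Cd163 at 2141 ± 340, with 2936 in replicate 4 and at most 2281 elsewhere, and by the complement starters C1qb at 1120 ± 139 and C1qa at 1053 ± 193. Neutrophil markers summed to 2.14%, with S100a8 as their highest member. The 10 endothelial markers summed to 0.340%, with Cd34 at 425 ± 130, 734 in replicate 7 and at most 509 elsewhere, and the adhesion molecule Pecam1 at 62.0 ± 16.9. Cd34 is also carried by other progenitor and stromal cells. These are sums of probe values and give no cell fractions.

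Lymphocyte markers were low. The 16 T cell markers summed to 0.131% of the panel value, and 11 of them had a mean below 20, among them the coreceptors Cd4 (16.9 ± 6.86) and Cd8a (14.8 ± 3.84). The highest was Cd2 at 77.0 ± 23.04, and the receptor chain Cd3d averaged 37.6 ± 11.2. The regulatory T cell factor Foxp3 averaged 9.01 ± 3.16. Of the 11 B and plasma cell markers 9 were below 20, including Ms4a1 at 7.401 ± 3.33. The 9 NK cell markers summed to 0.156%, led by Klrd1 at 141 ± 40.4, and the activating receptor Ncr1 averaged 16.2 ± 8.93. Dendritic cell markers Xcr1, Flt3 and Itgax averaged 13.3, 17.8 and 18.4. Ifng averaged 10.9 ± 2.36, and its lowest library held 7.49 and its highest 14.0. The monocyte chemokine Ccl2 averaged 11.9 ± 3.05, while its relatives Ccl7 and Ccl8 averaged 3163 ± 1213 and 2384 ± 992.

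Tmem173, the gene of the adaptor STING, averaged 54.2 ± 11.1 and stood at place 402 of 750. Its values ran from 41.8 in replicate 6 through a median of 53.7 to 77.8 in replicate 5. That spread, a CV of 20.5% where counting alone would give 13.2%, passed the test of variation beyond counting error (adjusted p = 0.0263, chi-square index of dispersion over the libraries). The 10 genes of the nucleic acid sensing list had means of at least 20 and summed to 0.347% of the panel value.

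Among pathways, integrin and matrix adhesion genes summed to 15.3% of the panel value through Spp1, Cd63, Fn1 and Cd9. The 29 interferon-stimulated genes on the panel summed to 4.38%, of which Ifitm2 held the largest share, with Bst2 (tetherin) at 1339 ± 329. The inducible members stood lower, with Ifit3 at 301 ± 158, Isg15 at 276 ± 102 and Irf7 at 227 ± 102. Myeloid-attracting chemokines summed to 2.92%, MHC class I genes to 2.54%, complement to 2.52% and MHC class II to 1.85%. The highest member of the complement list was C1qbp, a mitochondrial protein, so that sum is not of complement components alone. Class II was led by the invariant chain Cd74 at 1702 ± 779 and by H2-Aa at 1658 ± 844. Cytotoxic effectors summed to 0.0758%, with granzymes Gzma at 62.9 ± 45.0 and Gzmb at 31.4 ± 18.3, Gzmb with 76.7 in replicate 1 and at most 37.1 elsewhere, and 7 of 10 were below 20. Among checkpoint genes the "don't eat me" signal Cd47 was highest at 1047 ± 59.4, and the ligand Cd274 (PD-L1) averaged 206 ± 83.8 and its receptor Pdcd1 22.4 ± 9.03.

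Most probes varied between libraries by more than counting allows. Of the 536 tested probes, 464 (86.6%) varied beyond counting error in a chi-square index of dispersion test on the whole counts (Benjamini-Hochberg over the 536, threshold 0.05). Over the 412 probes with a mean of at least 50 the median CV was 21.6%, with quartiles of 13.9% and 31.2%, where counting alone gave a median of 6.84%. The 72 probes not called had a lower median of their means, 53.4, than the called ones, 172. A CV of at least 50% was seen in 35 of the 412 probes and a CV under 10% in 41.

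**Figure D2:**
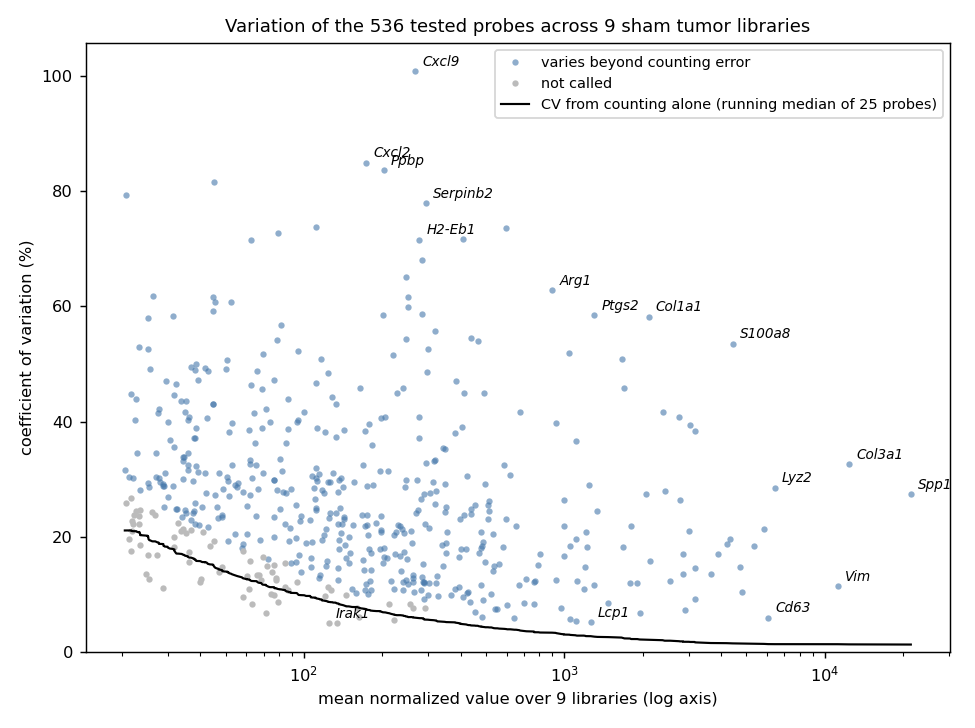
Coefficient of variation over the 9 sham libraries against the mean normalized value (log axis) for the 536 tested probes, with the CV that counting alone would give (line). Most points lie above the line; Cxcl9 is highest at 101%, and Cd63 combines a mean of 6063 with a CV of 5.96%.

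Cxcl9, Cxcl10, Il2rb, Gzma, H2-Eb1 and Irgm2 were among the most variable probes, and all 6 had their highest value in replicate 1 or 4. Cxcl9, a chemokine induced by interferon-gamma that draws T cells through Cxcr3, had the highest CV of the 412 probes, 101%. Its values were 48.4 in the lowest library (replicate 2), 163 in the median one and 929.6 in the highest (replicate 1), with 428 in replicate 3 as the next. Without replicate 1 its CV was 61.3%. Cxcl10, another Cxcr3 ligand, had 165 in replicate 2, a median of 373 and 929 in replicate 1, with 724 in replicate 4. Il2rb, the shared receptor chain for interleukins 2 and 15, was 185 and 171 in replicates 1 and 4 and at most 75.7 elsewhere. Gzma was 133 and 147 in the same libraries and at most 58.2 elsewhere. H2-Eb1, a class II beta chain, was 647 and 591 there and at most 277 elsewhere, and Irgm2, an immunity-related GTPase, 156 and 145 against at most 89.7. For these 4 genes replicates 1 and 4 stood above the other 7.

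Neutrophil chemokines and genes of inflammatory myeloid cells made up another group, and it was high in replicates 5 and 6 and often in replicate 2. Cxcl2 had a CV of 84.9%, with 30.6 in replicate 4, a median of 123 and 460 in replicate 6. Cxcl3 had 12.97 in replicate 4, a median of 101 and 267 in replicate 6. Cxcl1 had 134 in replicate 4, a median of 263 and 1051 in replicate 6. Ppbp, a chemokine stored in platelets, had 24.1 in replicate 4, a median of 134 and 537 in replicate 2. The promoters of Cxcl1, Cxcl2 and Cxcl3 printed above belong to these probes. Arg1 had a mean of 897 and a CV of 62.8%, with 131 in replicate 4, a median of 1053 and 1784 in replicate 6. Replicates 1, 3 and 4 were the low libraries for Arg1, at 239, 362 and 131, and the other 6 held 777 or more. Ptgs2 (cyclooxygenase 2) averaged 1303 ± 762 and Serpinb2, an inhibitor of plasminogen activators, 295 ± 230, and both peaked in replicate 5 or 6. Lyve1, a marker of lymphatic vessels and of some macrophages, had 17.5 in the lowest library and 150.2 in the highest.

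A smaller set followed matrix and complement. Col1a1, the other main fibrillar collagen, averaged 2105 ± 1225, with 728 in replicate 7, a median of 1812 and 4819 in replicate 4. Serping1, the inhibitor of C1, had 236 in replicate 7, a median of 464 and 1591 in replicate 4. C4b had 119.9 in replicate 7, a median of 179.9 and 526.2 in replicate 4. Cfd (adipsin), a complement protease made by fat and other cells, had 107 in replicate 7, a median of 195 and 503 in replicate 4. Replicate 7 was lowest and replicate 4 highest for each of these 4 genes. Cma1, a mast cell chymase, was 703 in replicate 4 and 172 to 334 in the other 8, and its CV of 58.6% was 25.2% without that library. Mmp9, a gelatinase of granulocytes and macrophages, ran from 79.2 to 649, again with replicate 4 as the highest. The last of the 25 probes of highest CV was Irgm2 at 54.2%, and Ccl5 came just after it at 54.0%.

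**Figure D3:**
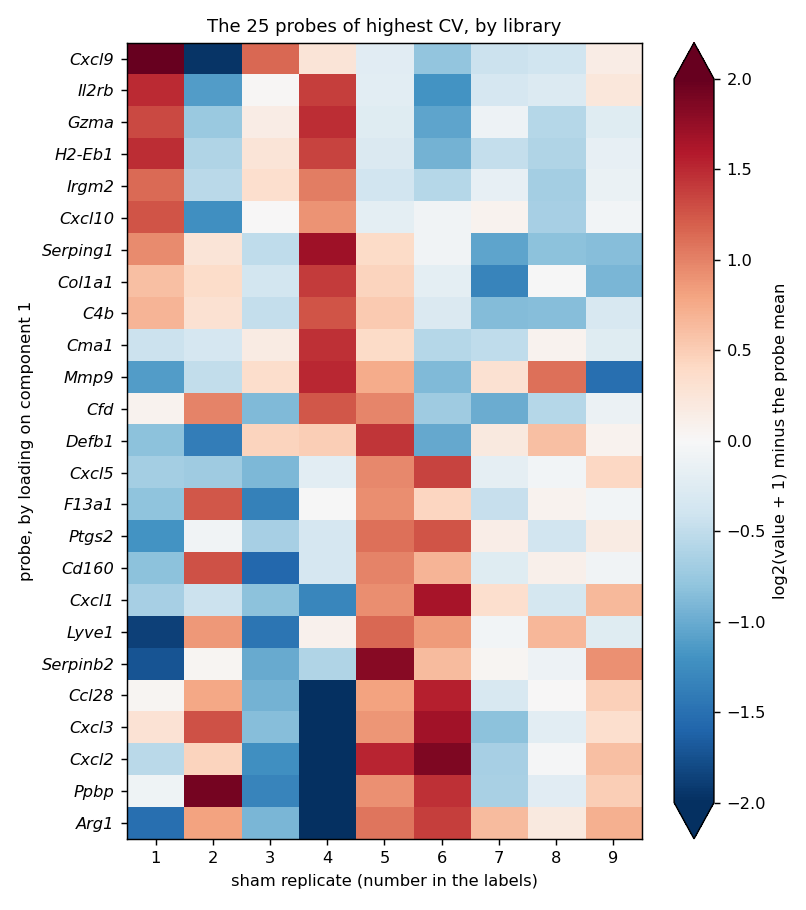
Centred log2(value + 1) of the 25 probes of highest CV (rows, ordered by loading on the first principal component) in each of the 9 sham libraries (columns, numbered as in the labels). Il2rb, Gzma, H2-Eb1 and Irgm2 are high in replicates 1 and 4, Cxcl9 and Cxcl10 are highest in replicate 1, and Cxcl5 to Arg1 are above their means in replicates 5 and 6.

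The evenest probes were signaling and housekeeping genes. With a mean of at least 50, the 10 lowest CVs belonged to the kinase Irak1 (5.01%), the factor Nfatc3 (5.04%), the actin bundler Lcp1 (5.2%), the kinase Jak1 (5.39%), the survivin gene Birc5 (5.65%), Cd47 (5.68%), Cd63 (5.96%), the factor Yy1 (5.97%), the adaptor Traf2 (6.13%) and the kinase Map2k2 (6.14%). Irak1, Nfatc3, Birc5 and Traf2 were not called beyond counting error, with CVs below those that counting alone would give. Irak1 ran from 110.0 to 132.5 and Lcp1, a leukocyte gene, from 1163 to 1375. The CV of Irak1 was 2.59% without replicate 9, and that of Cd47 2.5% without replicate 2. The NF-kB signaling list had a median CV of 10.4% over 16 probes, and the myeloid-attracting chemokine list one of 40.3% over 14. Of those probes 9 of 16 and 13 of 14 varied beyond counting error, against 86.6% of the probes tested.

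The libraries differed in how often they held an extreme. Replicate 4 was the highest library for 148 of the 536 probes and replicate 1 for 92, while replicates 8 and 9 were the highest for 8 and 17. Replicate 6 was the lowest library for 86 probes and replicate 5 for 13. The first principal component of the centred log2 values held 47.2% of the variance, the next 15.8% and the one after 10.8%. Scores on the first component were 11.2 in replicate 4, 9.44 in replicate 1 and 5.06 in replicate 3, and they lay between -8.75 and -0.952 in the other 6. Cxcl9, Il2rb, Gzma and H2-Eb1 had the highest loadings on it and Arg1, Ppbp, Cxcl2 and Cxcl3 the lowest. The next component was led by Cfd, Serping1, Col1a1 and C4b. The first component's scores had a rho of -0.417 with the scaling factor and of 0.367 with the whole counts, and no probe of the 536 (0%) passed the test against the scaling factor, where 18 had an unadjusted p under 0.05 (exact permutation of Spearman's rho, smallest adjusted p = 0.402).

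Ranks of probes were compared over the 9 libraries in all 143380 pairs of the 536 tested probes. No pair passed the test after Benjamini-Hochberg adjustment, neither positive (0%) nor negative (0%), and the smallest adjusted p was 0.0659 by exact permutation of Spearman's rho. At an unadjusted p under 0.05 there were 15617 pairs (10.9%), 10773 positive and 4844 negative. With 9 libraries 5.51e-06 is the smallest two-sided p that permutation of Spearman's rho can give. The pairs are therefore described by size. A rho of at least 0.9 was seen in 1255 pairs (0.875%) and a rho of -0.9 or below in 338 (0.236%), and the median rho was 0.0833. The balance moved with the scaling: after centring each library on the panel the counts were 986 and 770, and in whole counts without scaling 2541 and 57, with a median rho of 0.325 over pairs. The 25 probes of highest CV fell into 13 with a positive and 12 with a negative loading on the first component. That split uses the same values, so the signs within and between its sides are largely built in. The median rho was 0.383 over the 78 pairs within the 13, 0.733 over the 66 within the 12 and -0.425 over the 156 between them, none of which was at -0.9 or below.

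**Figure D4:**
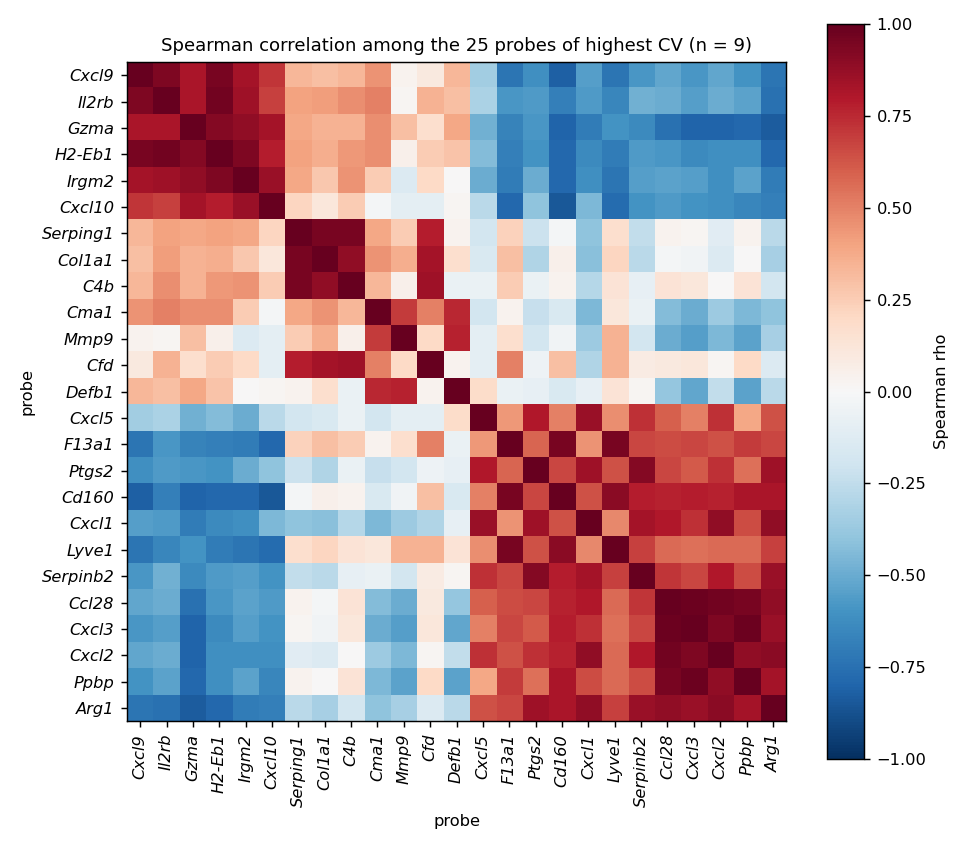
Spearman rho over the 9 sham libraries among the 25 probes of highest CV, in the order of their loading on the first component. Cxcl9 to Cxcl10, Serping1 with Col1a1, C4b and Cfd, and Cxcl5 to Arg1 form blocks of positive rho, and the first and last blocks are negative to each other.

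Some of the main MHC class II genes kept one order across the libraries. Cd74, H2-Aa and H2-Ab1 ranked the 9 libraries identically, a rho of 1 for each of the 3 pairs (adjusted p = 0.0659, exact permutation). For Cd74 and H2-Ab1 it was 0.95 after centring each library on the panel and 0.95 in whole counts without scaling. Cd74 had 862 in replicate 2, a median of 1512 and 3114 in replicate 1, and H2-Ab1 had 499, 885 and 2097 in the same libraries. H2-Eb1, also among the highest members of the list, was lowest in replicate 6 instead. On the log2 scale the Pearson r of Cd74 and H2-Ab1 was 0.990 (unadjusted permutation p = 2.76e-06) and 0.97 without the 2 libraries farthest from the median. The permutation p-values of Pearson's r here and below are unadjusted, for pairs picked from these same values, and give no separate test. Tlr9, an endosomal DNA sensor of dendritic and B cells, followed H2-Ab1 with a rho of 0.983 (adjusted p = 0.0961, exact permutation). Within the class II list, 6 of 28 pairs reached 0.9, against 0.875% of the pairs tested, and the median rho was 0.60. The 10 partners of Cxcl9 at 0.9 or above included Cd74, H2-Aa, H2-Ab1, H2-Eb1, Il2rb, Tlr9 and the class I factors Nlrc5 and Tap2. The 5 at -0.9 or below were Xbp1, Nos2, Arg2, Cd53 and Plaur.

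Interferon-stimulated genes shared much of their order. Of the 351 pairs within the list, 46 reached a rho of 0.9 and 0 reached -0.9, with a median rho of 0.60, where over every pair tested 0.875% and 0.236% did and the median was 0.0833. Over alternative scalings of the libraries the median lay between 0.583 and 0.767, and the count of 46 was 99 in whole counts without scaling and 33 to 58 with a library left out. The count over every pair tested moved too, from 1255 to 2541 without scaling and to 1443 to 2196 with a library left out. Irf7, which amplifies the interferon response, and Isg15, a ubiquitin-like modifier, had a rho of 0.983. Their Pearson r on the log2 scale was 0.921 (unadjusted permutation p = 0.000243) and 0.796 without the 2 libraries farthest from the median. Isg15 had 132 in replicate 2, a median of 231 and 448 in replicate 1. The probes with the most partners at a rho of 0.9 or above were Zbp1, a nucleic acid sensor, with 32, Ifi44 with 31 and Klra2 with 31. Klra2 belongs to a family of near-identical receptor genes and its probe is uncertain.

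The same order ran into many antigen presentation and cytotoxic genes, though not all. Between the interferon-stimulated and the MHC class I lists the median rho was 0.667 and 31 of 243 pairs reached 0.9, and with class II it was 0.60 and 16 of 216. With the cytotoxic effectors, of which Gzma, Gzmb and Tnfsf10 had a mean of at least 20, it was 0.733 and 11 of 81. With NK cell markers it was 0.617, but only 1 of 135 pairs reached 0.9. Over every pair tested 0.875% reached 0.9. Il2rb and Gzma had a rho of 0.817 (adjusted p = 0.268, exact permutation). Cd160, of the checkpoint list and among the probes of highest CV, went the other way. Its rho was -0.80 with Gzma, -0.817 with Cxcl9 and 0.817 with Arg1. Within class I, H2-Q10 went against the rest. It had 19.5 in replicate 1 and 88.9 in replicate 6, and its rho with Klra2 was -0.983 (adjusted p = 0.0961, exact permutation). Probes of the H2-Q family are uncertain because its members are near-identical. The 5 T cell markers with a mean of at least 20 had a median rho of -0.225 among themselves and of 0.283 with the interferon-stimulated list, and their score was -0.0275 in replicate 1 and 0.00834 in replicate 4.

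Neutrophil chemokines, their receptor and Arg1 shared much of another order, though not evenly. Cxcl2 and Cxcr2 had a rho of 0.983. Their Pearson r on the log2 scale was 0.977 (unadjusted permutation p = 1.38e-05) and 0.958 without the 2 libraries farthest from the median. Cxcr2 had 41.7 in replicate 4, a median of 91.4 and 194 in replicate 6. Cxcl3 and Ccl3, a chemokine for macrophages and other leukocytes, ranked the libraries identically (rho 1, adjusted p = 0.0659, exact permutation). Cxcl2 and Cxcl3 had a rho of 0.933, Cxcl1 and Cxcl2 of 0.883, and Cxcl1 and Cxcl3 of 0.733. Ppbp had 0.983 with Cxcl3, 0.883 with Cxcl2 and 0.65 with Cxcl1. Cxcl5 had 0.867 with Cxcl1, 0.733 with Cxcl2, 0.50 with Cxcl3 and 0.383 with Ppbp. Ccl28, a mucosal chemokine, and Cxcl3 had a rho of 0.983. Within the myeloid-attracting chemokine list 7 of 91 pairs reached 0.9, against 0.875% of the pairs tested, and the median rho was 0.417. The count was 3 in whole counts without scaling and 7 to 16 with a library left out. Over every pair tested the count was 1255, and it was 2541 without scaling and 1443 to 2196 with a library left out. S100a8 had a rho of 0.617 with Cxcl2 (adjusted p = 0.487, exact permutation), and the neutrophil list as a whole had a median rho of 0.125. Between the neutrophil list and the myeloid-attracting chemokines the median was 0.283.

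Arg1 ranked the libraries as did Ccrl2, an atypical chemokine-binding receptor (rho 1). Their Pearson r on the log2 scale was 0.978 (unadjusted permutation p = 2.76e-06) and 0.932 without the 2 libraries farthest from the median. Thbs1, an inhibitor of vessel growth, had a rho of 0.983 with Arg1, and Vegfa, the main vessel growth factor, 0.850. Thbs1 had 484 in replicate 4, a median of 894 and 1483 in replicate 6. Vegfa had 63.9 in replicate 4, a median of 134 and 201 in replicate 6. Spp1 followed Arg1 with a rho of 0.80 (adjusted p = 0.287, exact permutation), and Pearson's r on the log2 scale was 0.890 and 0.685 without the 2 libraries farthest from the median. Between the myeloid-attracting chemokines and the angiogenesis and hypoxia list the median rho was 0.442, and 5 of 84 pairs reached 0.9. Over every pair tested 0.875% did.

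The interferon and chemokine orders leaned against each other, with few large values. Between the interferon-stimulated and myeloid-attracting chemokine lists 281 of 378 pairs had a negative rho, with a median of -0.40, and 5 reached -0.9. Most of these 5 came from a single interferon-stimulated probe, Ifi35. It was a partner at -0.9 or below of Cxcl2, Cxcl3 and Ppbp, and of Ccl3, which ranked the libraries as Cxcl3 did. Over all pairs tested the median rho was 0.0833, and 0.236% of pairs were at -0.9 or below. Between the cytotoxic effectors and the same chemokines the median was -0.525. With the angiogenesis and hypoxia list the interferon-stimulated median was -0.458, which was -0.0417 in whole counts without scaling. Cxcl9 and Arg1 had a rho of -0.733 (adjusted p = 0.362, exact permutation). H2-Ab1 and Arg1 had a rho of -0.75, and it was -0.50 without the 2 libraries farthest from the median. These pairs did not pass the test.

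**Figure D5:**
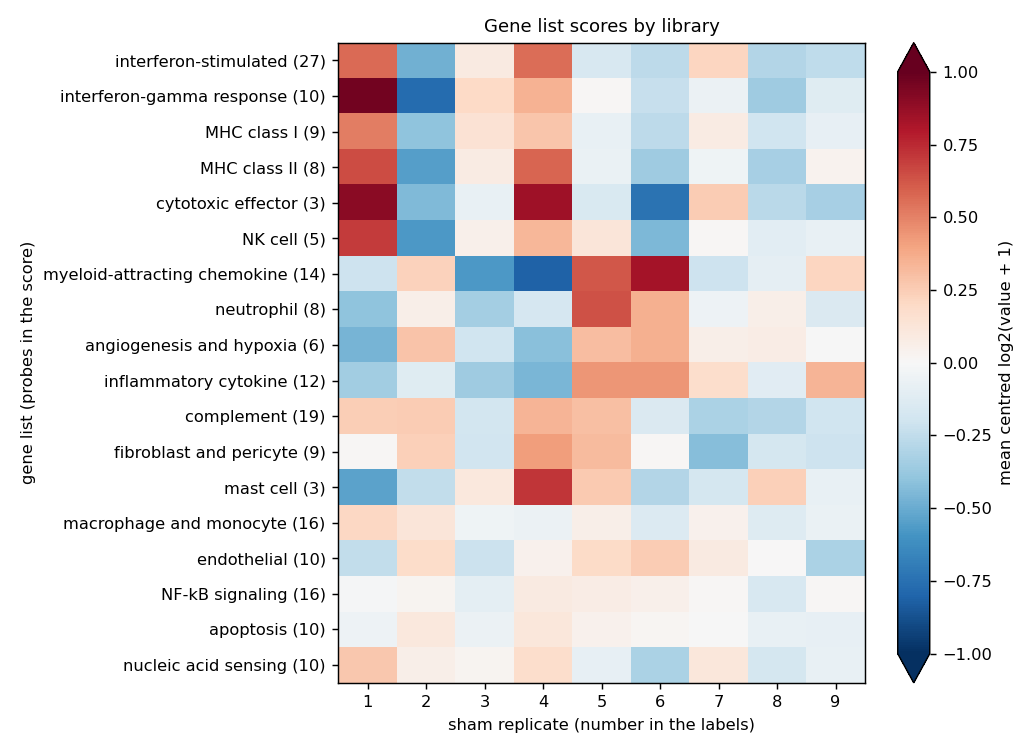
Score of 18 gene lists (rows, with the number of probes in brackets) in the 9 sham libraries (columns), as the mean of the centred log2(value + 1) of their probes. Interferon, MHC and cytotoxic lists score highest in replicates 1 and 4, myeloid-attracting chemokines reach 0.829 in replicate 6 and -0.810 in replicate 4, and the NF-kB and apoptosis lists stay near 0.

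Scored by library, the interferon-stimulated list stood at 0.569 in replicate 1 and 0.560 in replicate 4 (mean centred log2 over 27 probes), and at -0.477 in replicate 2. The cytotoxic effector list stood at 0.90 and 0.84 in replicates 1 and 4 and at -0.736 in replicate 6. The myeloid-attracting chemokine list stood at 0.829 in replicate 6, 0.619 in replicate 5 and -0.810 in replicate 4. Replicate 2 was low for interferon and MHC lists without being the highest for chemokines, at 0.232. The macrophage and monocyte list had a range of 0.341 over the libraries and the apoptosis list of 0.190, where the interferon-gamma response list had one of 1.73. Replicates 1 and 4 parted in the mast cell list, at -0.533 and 0.717.

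The complement and matrix group had an order in which replicate 4 was high and replicate 7 low. C1ra, a serine protease of the C1 complex, had a rho of 0.983 with Serping1 and of 0.983 with C4b. Its Pearson r with C4b was 0.964 on the log2 scale (unadjusted permutation p = 6.34e-05) and 0.963 without the 2 libraries farthest from the median. C1ra had 119 in replicate 7, a median of 174.5 and 238 in replicate 4. C3 and Siglec1, a sialic acid receptor of macrophages, had a rho of 0.983. Col1a1 and Col3a1 had a rho of 0.883 (adjusted p = 0.197, exact permutation). The median rho between the fibroblast and complement lists was 0.35, and it was 0.15 after centring each library on the panel. Fcer1a, the mast cell receptor chain for IgE, had 52.7 in replicate 1 and 87.8 or more elsewhere. Its rho with Cma1 was 0.90 and its Pearson r 0.687 on the log2 scale (unadjusted permutation p = 0.0526). Mmp9 followed Angpt1, a vessel-stabilizing ligand, with a rho of 0.917, and Cma1 with 0.70. The epithelial pair Cdh1 and Epcam had a rho of 0.883.

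Other close pairs joined abundant genes. C1qbp, a mitochondrial protein, and Il1rl1, the receptor for interleukin 33, ranked the libraries identically (rho 1, Pearson r 0.988 on the log2 scale). That rho was 0.767 after panel centring and 0.483 without scaling. C1qbp and Gpi1, a glycolytic enzyme, had a rho of 0.983. Il1rl1 had 1338 in replicate 1, a median of 2500 and 3428 in replicate 6. Csf1, the macrophage growth factor, had a rho of -0.983 with the kinase Abl1 and with the integrin Itga4, and these were -0.433 and -0.367 without scaling. Nos2, the inducible nitric oxide synthase, had -0.983 with Spn (CD43). Cd97, an adhesion receptor of leukocytes, had 17 partners at -0.9 or below beside 17 at 0.9 or above.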

How the data were processed

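The authors deposited a matrix of normalized signal values on a linear scale for 750 endogenous probes and a file per library. For the software, control probes and scaling set, the sources used here give nothing. The matrix and the per-library files differed by at most 0.04997, their rounding. In the 9 sham libraries 100% of the values were whole multiples of a step per library within 0.05 of it, which gave the whole counts. Probe accessions matched the GRCm38.p6 table for 727 of 750, and the files' names were kept (Tmem173 is Sting1 there).

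The 9 libraries were grouped by their labels. Probes with a mean of at least 20 and no blank entered the tests (536). Variation beyond counting was tested with the index of dispersion of the whole counts (chi-square). Spearman's rho was tested over the orders of 9 libraries by exact permutation, two-sided, over 143380 pairs. Pearson's r was taken on log2(value + 1), and its permutation p was not adjusted. Adjustment was Benjamini-Hochberg at 0.05 over each whole family. Calls of variation beyond counting were checked on simulated counts. These held counting error alone except in probes given a shared pattern, a simpler setting than these libraries. Alternatives were panel centring, TMM factors, whole counts without scaling, other filters and leaving out each library. Python 3.11.15, numpy 2.4.6, scipy 1.17.1 and pandas 2.3.3 were used.

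The libraries, the 34 gene lists and the rule for named genes were chosen with earlier results of these data known. That rule took the 25 probes of highest mean, the 10 of lowest and 25 of highest CV with a mean of at least 50, the 20 highest and 10 lowest pairs, the 10 probes with most partners, and up to 4 highest members of a list. Since no pair passed the test, partners were counted at a rho of 0.9 or -0.9, a choice made after seeing the data, as were 21 further pairs and a part of the genes named. Some genes that this rule reaches, and a pair whose sign changed without scaling, are not reported here.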

Additional observations from a re-analysis of the deposited data

Results flagged for a closer look

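The values of each named probe on the log2 scale, the list scores and a few library measures were searched for a library far from the other 8, in 152 groups, of 8 values for Hif1a and 9 otherwise. Dixon's ratio passed its critical value (0.493 for 9 values) in 6 of them, and chance flags about 1 in 20 groups. Cd47 was high in replicate 2 (ratio 0.649), at 10.22 against 10.06 in the next library. Irak1 was low in replicate 9 (ratio 0.614), at 6.79 against 6.96. Cd163 was high in replicate 4 (ratio 0.543), at 11.52 against 11.16. Cma1 was high in replicate 4 (ratio 0.530), at 9.46 against 8.39. Fcer1a, the other mast cell gene named, was low in replicate 1 (ratio 0.495), at 5.75 against 6.47. The checkpoint list score was low in replicate 3 (ratio 0.501), at -0.373 against -0.0794.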

How the results depend on the processing

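No paired analysis was possible because the libraries form a single group. The share held by the 10 highest probes stayed between 30.4% and 31.1% in a ranking by median and with a library left out. It is a ratio within a library, so other scalings could change it only through the choice of the 10 probes. The count of probes varying beyond counting error was 451 with TMM factors, 376 with a mean of at least 50, 509 without a filter and 445 to 464 with a library left out. Under these alternatives 0 pairs passed the rank test (smallest adjusted p from 0.0510 to 0.199, exact permutation), and 0 probes passed the test against the scaling factor. With a library left out the smallest p that permutation can give is larger than with 9 libraries. Those runs could therefore hardly call a pair, and their 0 says little. Pairs with a rho of at least 0.9 numbered 1255, against 2541 in whole counts without scaling and 1443 to 2196 with a library left out (n = 8). Pairs at -0.9 or below numbered 338, against 770 after panel centring, 727 with TMM factors, 57 without scaling, 190 with a mean of at least 50, 161 by Pearson's r and 396 to 842 with a library left out. A rho of 0.9 in size comes up more easily by chance with 8 libraries than with 9. The counts with a library left out are therefore not directly comparable with the others. The cause of the differences was not tested. The planned count by Pearson's r at the size set by called pairs was not run, since no pair was called. The first component held 44.3% to 50.8% of the variance with a library left out and 43.3% without replicates 1 and 4 together. Between lists, the interferon-stimulated median rho with myeloid-attracting chemokines lay between -0.467 and -0.30 over scalings. The within-list medians of apoptosis, checkpoint and pan-leukocyte genes changed sign between scalings. A single library moved a CV by over 1.5 times in further named probes: it was 8.52% for Cd163 without replicate 4, 16.0% for Cd34 without replicate 7, 28.1% for Gzmb, 25.4% for Pdcd1, 27.5% for Tap2 and 11.9% for C1qa without replicate 1, and 11.8% for Cd53 without replicate 2. Counting error limits what the 213 probes below a mean of 20 can show.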

Other observations

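Other probes with wide variation were chosen here after their values were seen, and the rule for named genes did not reach Il6 and Csf3. Il6, an inflammatory cytokine, averaged 45.2 ± 36.9, with 12.3 in replicate 1, a median of 35.6 and 125 in replicate 9, and its CV of 81.6% lay above that of Serpinb2. Replicate 9, the highest for Il6, held 214 for Cxcl9, between its median of 163 and its highest value. Csf3, the growth factor of granulocytes, had 16.7 in replicate 4, a median of 39.3 and 98.5 in replicate 6. Klrk1 (NKG2D), an activating receptor of NK and T cells, had 14.6 in replicate 2, a median of 40.4 and 106 in replicate 1. Apoe, an apolipoprotein of macrophages, had 1605 in replicate 6, a median of 2508 and 5328 in replicate 1, and it held rank 18 by mean. Clu (clusterin), a secreted chaperone, had 1019 in replicate 4, a median of 2728 and 4510 in replicate 5. Cd274 had 104 in replicate 3, a median of 210.0 and 378 in replicate 6, so its highest library was one in which the interferon-stimulated list scored -0.259.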
